A study of Mus musculus with 6 samples.

Results

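The 7 genes described here form the pathway that degrades the MYC transcription factors through the ubiquitin ligase subunit FBXW7. They are Fbxw7, Cul1, Usp28, Myc, Mycn, Max and Ccne1, taken by gene symbol as members of the pathway. The choice was made with earlier results of these data known. All 7 of 7 were found among the 18491 genes of the deposited table. RNA sequencing was done on brains taken at postnatal day 28 from mice of the inbred C57BL/6N strain. There were 3 libraries from Mettl5-/- mice (called knockout here) and 3 from wild-type mice, with no other allele or treatment named. The labels do not give the deleted part of the gene, and they do not say whether each library came from 1 animal. Every p-value therefore measures the spread between these libraries, which may be technical.

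FBXW7 is the substrate-binding subunit of an SCF ubiquitin ligase, in which the cullin CUL1 is the scaffold that brings substrate and ubiquitin-conjugating enzyme together. It binds substrates through short phosphorylated stretches called phosphodegrons, and MYC, N-MYC and cyclin E1 are among its textbook substrates. The deubiquitinase USP28 associates with FBXW7 and removes ubiquitin from its substrates, and MAX is the partner with which MYC and N-MYC bind DNA. In the developing mouse brain FBXW7 is known to restrain neural stem cells through substrates such as NOTCH and JUN. Mettl5 encodes the methyltransferase that places N6-methyladenosine on small-subunit ribosomal RNA. In mouse embryonic stem cells, loss of METTL5 has been reported to lower translation of FBXW7 and to raise MYC protein. The present libraries measure messenger RNA from brain, and no protein or translation was measured in them.

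The stretches that FBXW7 recognises are shown because they are what the substrates among the 7 genes share. The coding sequences were searched for codons of threonine, proline, proline, any 1 residue and serine. A match was found in Myc, Mycn and Ccne1, and none in the listed transcripts of Fbxw7, Cul1, Usp28 and Max. Among 21489 protein-coding mouse genes, 399 (1.86%) hold such a stretch in at least 1 transcript. A match describes the letters only. The pattern is the known one of these substrates, so finding it in them was not a test. In the sense-strand sequences below, written 5′ to 3′ from GENCODE M21 transcripts on GRCm38, capitals mark the threonine codon with the pair of proline codons after it, and then the serine codon.
Myc: ctgcttcccACCCCGCCCctgTCCccgagc
Mycn: ctgctgcccACGCCCCCGttgTCGcccagc
Ccne1: gtggtcctgACACCCCCAcccAGCagtaag

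The Myc stretch lies in coding exon sequence at chr15:61987684-61987713 on the plus strand, in exon 2. Its threonine is codon 73 of 454, counted from the upstream CUG start that the annotation uses. The Mycn stretch lies at chr12:12940202-12940231 on the minus strand, also in exon 2, with the threonine at codon 58 of 462. The Ccne1 stretch lies at chr7:38098545-38098574 on the minus strand in exon 12, with the threonine at codon 393 of 408, near the end of the protein. Myc and Mycn shared 23 of the 30 bases, and all 10 encoded residues were the same. Ccne1 shared 13 of 30 bases and 4 of 10 residues with Myc, and 12 bases and 4 residues with Mycn. These 4 residues are the threonine, the prolines and the serine that the search required, so sharing them was fixed in advance. The same 4 are among the 10 that Myc and Mycn share.

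Expression is given in FPKM, which counts fragments per kilobase of transcript length relative to all mapped fragments of that library. Sums per library ran from 350727 to 366861 FPKM in the knockout and from 353994 to 377334 FPKM in the wild type. Absolute depth is unknown, because FPKM holds no read totals. Mettl5 itself, the check of the labels, had 2.79, 3.81 and 2.40 FPKM in knockout libraries 1, 2 and 3, against 4.78, 5.16 and 5.92 FPKM in wild-type libraries 1, 2 and 3. Its values did not overlap between the genotypes, but it did not pass the test over all genes (limma adjusted p = 0.79). The 6 pan-neuronal markers, mostly the synaptic gene Snap25, summed to 2182 to 2231 FPKM in the knockout and to 2210 to 2295 FPKM in the wild type, and single markers went opposite ways. The neurofilament gene Nefl had 120.55 to 128.54 FPKM in the knockout and 156.71 to 205.40 FPKM in the wild type, a log2 fold change of -0.47. Rbfox3, which encodes the neuronal protein NeuN, had 94.36 to 121.96 FPKM in the knockout and 78.98 to 90.40 FPKM in the wild type, a log2 fold change of 0.32. Neither overlapped between genotypes, both had an unadjusted p under 0.05, and both had a limma adjusted p of 0.79. Knockout library 2 stood apart in cerebellar granule neuron markers. The 6 markers summed to 430.4 FPKM there and to between 24.4 and 51.3 FPKM in the other 5 libraries. Gabra6, a receptor subunit of these neurons, had 86.25 FPKM in knockout library 2, 4.77 FPKM in wild-type library 2 and 0.03 to 0.21 FPKM elsewhere. The next highest sum, 51.3 FPKM, was also that of wild-type library 2. Knockout library 3 stood apart in 10 oligodendrocyte markers, which summed to 2092 FPKM there, to 5268 and 5626 FPKM in knockout libraries 1 and 2, and to 6347 to 7591 FPKM in the wild type. Other glial lists also leaned lower in the knockout, with 0 genes past the adjusted threshold in limma. At an unadjusted p under 0.05, 3 of 6 genes listed as oligodendrocyte precursor markers (Gpr17, Neu4 and Bcas1) were lower. So were 2 of 6 astrocyte markers (Gfap and Gja1), against 3.69% of all genes tested. The log2 fold change was positive for 2 genes of the precursor list, Pdgfra (0.12) and Cspg4 (0.15), so that list did not move as 1. It was also positive for 1 astrocyte marker, Slc1a3 (0.33). All 6 microglia markers had a negative log2 fold change, and 0 of them had an unadjusted p under 0.05. The part of these glial markers in the values below was not tested. Values without knockout library 2 or 3 are given beside the differences of named pathway genes that move by over 1.5 times when it is left out.

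**Figure D1:**
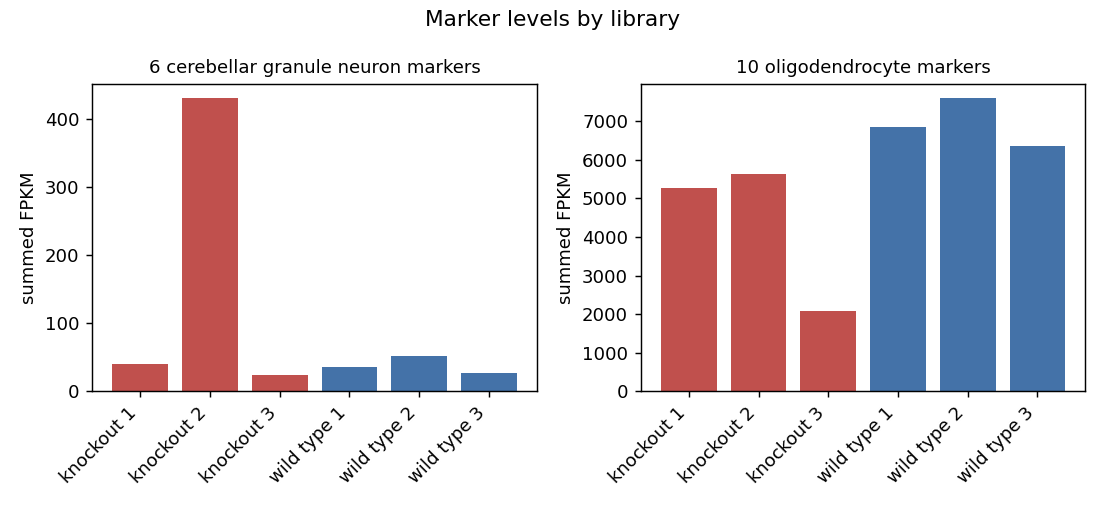
Summed FPKM of 6 cerebellar granule neuron markers (left) and 10 oligodendrocyte markers (right), with 1 bar per library, 3 knockout libraries (red) and 3 wild-type libraries (blue). The granule markers reach 430.4 FPKM in knockout library 2 and at most 51.3 FPKM elsewhere, and the oligodendrocyte markers are lowest, at 2092 FPKM, in knockout library 3.

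The transcripts of the pathway fell into a high, a middle and a low tier in these brains. Averaged over all 6 libraries, Fbxw7 had 48.5 FPKM, Cul1 45.4 FPKM and Max 38.6 FPKM. Each of these levels lay above at least 84.6% of the 12885 genes tested. Usp28 had 7.05 FPKM and Ccne1 6.72 FPKM, in the middle. Myc and Mycn were the lowest, at 2.65 and 2.47 FPKM, and exceeded 14.2% and 12.9% of the genes tested. Fbxw7 was above Cul1 in 4 of 6 libraries, Usp28 above Ccne1 in 3 of 6 and Myc above Mycn in 3 of 6, so the order within these pairs did not go beyond the spread. Cul1 was above Max in all 6 libraries, although their ranges overlapped. The lowest Max value, 35.83 FPKM, was above the highest Usp28 value, 9.14 FPKM, and the lowest Ccne1 value, 5.54 FPKM, was above the highest Myc value, 2.93 FPKM.

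None of the 7 transcripts differed between knockout and wild-type brains beyond the spread between libraries. In limma, fitted to log2(FPKM + 1) for every gene averaging 1 FPKM or more, 0 of the 7 reached the threshold of 0.05 after Benjamini-Hochberg adjustment, and 0% of the 12885 genes tested did so. The adjusted p-values of the members lay between 0.81 and 0.99. At an unadjusted p under 0.05 there were 0 of the 7, against 6.05% of all genes tested (2.37% higher and 3.69% lower in the knockout). For 0 of the 7 did the values of the genotypes stand entirely apart, against 11.9% of all genes tested (5.48% higher and 6.43% lower). The log2 fold change was above 0 for 4 members and below 0 for 3, against 49.1% and 50.9% of all genes tested. Leaving out knockout library 2 or knockout library 3 also gave 0 of 7 past the adjusted threshold. The median log2 fold change (knockout minus wild type) was 0.011 over the members and -0.0032 over all genes tested. In these bulk samples, fewer cells of a type and less RNA per cell cannot be told apart.

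**Figure D2:**
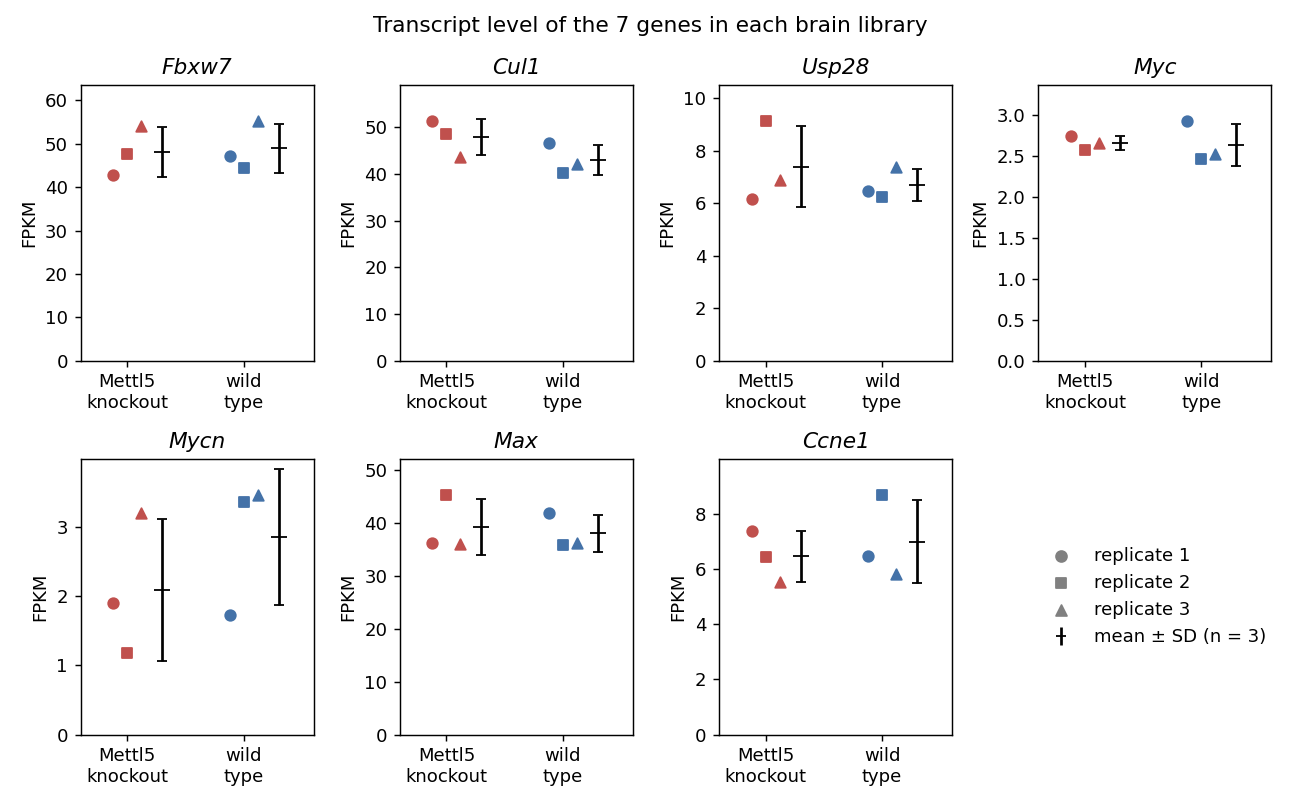
FPKM (vertical axes, each starting at 0) of the 7 genes in the 3 knockout libraries (red, left) and 3 wild-type libraries (blue, right), with symbol shape giving the replicate number and bars the mean ± SD. The genotypes overlap in every panel, Usp28 and Max are highest in knockout library 2, and Mycn spreads from 1.17 to 3.46 FPKM.

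Fbxw7 (gene ID 50754; chr3:84814990-84979198, GRCm38) encodes the substrate-binding subunit. It had 42.74, 47.51 and 54.06 FPKM in knockout libraries 1, 2 and 3, against 47.07, 44.45 and 55.23 FPKM in wild-type libraries 1, 2 and 3. The genotypes overlapped almost completely, and library 3 was the highest in each. The means were 48.1 ± 5.7 FPKM in the knockout and 48.9 ± 5.6 FPKM in the wild type (SD, n = 3 each). The log2 fold change was -0.024 (SE 0.12), with a 95% confidence interval of -0.31 to 0.26, which corresponds to 80.5% to 119.9% of the wild-type level. The unadjusted limma p-value was 0.847 and the adjusted one 0.981. Permuting the FPKM values between genotypes (exact permutation test, 2-sided) gave p = 0.8, where 0.1 is the smallest p that 3 against 3 libraries allow. The sign of this difference turned in some alternatives: it was 0.056 when knockout library 1 was left out, 0.065 when wild-type library 3 was left out, and 0.004 with libraries scaled to a common sum. Leaving out knockout library 3 gave -0.11 (limma adjusted p = 0.92).

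The FPKM of Fbxw7 pools 3 transcripts that start at separate first exons. In the GENCODE M21 annotation, the transcripts matched to them start at chr3 positions 84815268, 84864145 and 84952146. The other starts lie 48877 and 136878 bases downstream of the first. The transcript from the last start carries 629 codons, and the other transcripts carry 710. A gene-level value does not show how the fragments divide among these starts, so a shift between isoforms was not measured.

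Cul1 (gene ID 26965; chr6:47453732-47526144) encodes the scaffold of the ligase. It had 51.38, 48.54 and 43.71 FPKM in knockout libraries 1, 2 and 3, against 46.65, 40.26 and 42.08 FPKM in wild-type libraries 1, 2 and 3. The genotypes overlapped, since wild-type library 1 lay above knockout library 3. The means were 47.9 ± 3.9 and 43.0 ± 3.3 FPKM in knockout and wild type (SD, n = 3 each), a ratio of 1.11. Its log2 fold change was 0.15 (SE 0.098; 95% confidence interval -0.077 to 0.38), with a limma p of 0.164 (adjusted p = 0.81) and an exact permutation p of 0.2. Cul1 was the 1 member that differed in the same direction in all 3 same-numbered pairs, by 4.73, 8.28 and 1.63 FPKM, as did 40.0% of all genes tested. With the replicate number as a block its unadjusted p was 0.0689 (limma adjusted p = 0.375). With array weights it was 0.0472 (limma adjusted p = 0.47), and its adjusted p missed the threshold in every alternative run. A pseudogene on the opposite strand, A930035D04Rik, shares 192 exon bases with Cul1, and no source used here says whether the counting used strand.

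Usp28 (gene ID 235323; chr9:48985319-49042517) encodes the deubiquitinase that works against FBXW7. It had 6.18, 9.14 and 6.88 FPKM in knockout libraries 1, 2 and 3, against 6.46, 6.24 and 7.39 FPKM in wild-type libraries 1, 2 and 3. Knockout library 2 was the highest of the 6, and knockout library 1 was the lowest. The means were 7.40 ± 1.5 and 6.70 ± 0.61 FPKM in knockout and wild type (SD, n = 3 each). Between genotypes the log2 fold change was 0.11 (SE 0.14; 95% confidence interval -0.22 to 0.45; limma adjusted p = 0.897). Without knockout library 2, in which the cerebellar granule markers summed to 430.4 FPKM, it was -0.03 (limma adjusted p = 0.963), and the knockout mean was 6.53 FPKM. The part of the cerebellar markers in this value was not tested.

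Myc (gene ID 17869; chr15:61985341-61990361) encodes the substrate after which the pathway is usually described. It had 2.75, 2.57 and 2.66 FPKM in knockout libraries 1, 2 and 3, against 2.93, 2.46 and 2.52 FPKM in wild-type libraries 1, 2 and 3. The 3 knockout values lay inside the wild-type range, and the highest and lowest of the 6 were both wild type. The means were 2.66 ± 0.09 and 2.64 ± 0.26 FPKM in knockout and wild type (SD, n = 3 each). The log2 fold change was 0.011 (SE 0.11), with a 95% confidence interval of -0.24 to 0.26, or 78.8% to 127.6% of the wild-type level. The limma p was 0.92 (adjusted p = 0.99), and the exact permutation p was 0.9. The sign turned when single libraries were left out: -0.023 for wild-type library 2, -0.011 for wild-type library 3 and -0.0064 for knockout library 1. It was 0.029 without knockout library 2.

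Mycn (gene ID 18109; chr12:12936093-12941836) encodes N-MYC, the family member best known from neural progenitors. It was the most variable of the 7 between libraries. It had 1.90, 1.17 and 3.19 FPKM in knockout libraries 1, 2 and 3, against 1.72, 3.36 and 3.46 FPKM in wild-type libraries 1, 2 and 3. Knockout libraries 1 and 2 and wild-type library 1 were low, and library 3 of each genotype and wild-type library 2 were high. The means were 2.09 ± 1.0 and 2.85 ± 0.98 FPKM in knockout and wild type (SD, n = 3 each). The log2 fold change of -0.33 (SE 0.28) had a 95% confidence interval of -1.0 to 0.33, so the data allow anything from 31.9% to 135.1% of the wild-type level. The limma p was 0.275 (adjusted p = 0.841), and the exact permutation p was 0.4. The value depended on single libraries. Leaving out knockout library 2 gave -0.11 and leaving out knockout library 3 gave -0.58. Among wild-type libraries, leaving out number 1 gave -0.57, number 2 gave -0.23 and number 3 gave -0.21. None of these passed the threshold (limma adjusted p between 0.618 and 1.0).

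Max (gene ID 17187; chr12:76937269-76962323) encodes the shared partner of MYC and N-MYC. It had 36.20, 45.32 and 36.01 FPKM in knockout libraries 1, 2 and 3, against 41.95, 35.83 and 36.24 FPKM in wild-type libraries 1, 2 and 3. Knockout library 2 and wild-type library 1 were high, and the other 4 lay within 35.83 to 36.24 FPKM. The means were 39.2 ± 5.3 and 38.0 ± 3.4 FPKM in knockout and wild type (SD, n = 3 each). The difference was 0.038 on the log2 scale (SE 0.12; 95% confidence interval -0.24 to 0.31; limma adjusted p = 0.966). Without knockout library 2 it was -0.069 (limma adjusted p = 0.881), and without knockout library 3 it was 0.093 (limma adjusted p = 0.939). As for Usp28, the part of the cerebellar markers of that library was not tested.

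Ccne1 (gene ID 12447; chr7:38097984-38107490) encodes cyclin E1, which activates CDK2 at the start of DNA replication. It had 7.39, 6.44 and 5.54 FPKM in knockout libraries 1, 2 and 3, against 6.48, 8.69 and 5.80 FPKM in wild-type libraries 1, 2 and 3. Wild-type library 2 was the highest, and library 3 was the lowest in each genotype. The means were 6.46 ± 0.93 and 6.99 ± 1.5 FPKM in knockout and wild type (SD, n = 3 each). The difference was -0.091 on the log2 scale (SE 0.16; 95% confidence interval -0.46 to 0.28; limma adjusted p = 0.934). Leaving out wild-type library 2 gave 0.057, and leaving out knockout library 3 gave 3e-04. Of 11 listed genes of dividing cells, 5 had a mean below 1 FPKM, while Pcna had 24.58 to 33.59 FPKM and Tyms 12.87 to 16.15 FPKM over the 6 libraries. The 6 that were tested had log2 fold changes with a median of -0.016, and 0 had an unadjusted limma p under 0.05. Top2a, a topoisomerase of dividing cells below that mean, had 0.09, 0.15 and 0.27 FPKM in knockout libraries 1, 2 and 3, against 0.12, 1.13 and 0.46 FPKM in wild-type libraries 1, 2 and 3. All 5 genes below 1 FPKM were highest in wild-type library 2, as Ccne1 was, but only 1 of the 6 tested was, with 2 highest in knockout library 2, 2 in wild-type library 1 and 1 in wild-type library 3. The part of dividing cells in the Ccne1 values was not tested.

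**Figure D3:**
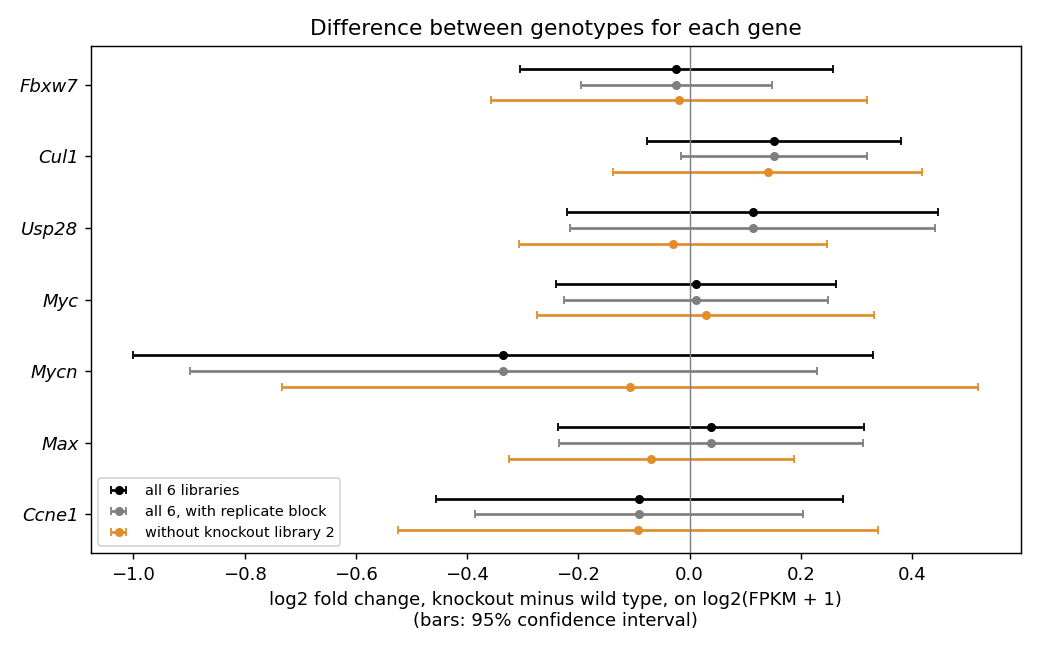
Log2 fold change (knockout minus wild type, horizontal axis, on log2(FPKM + 1)) of the 7 genes with 95% confidence intervals, for all 6 libraries (black), with the replicate number as a block (grey) and without knockout library 2 (orange). Every interval includes 0, and the widest is that of Mycn, from -1.0 to 0.33 with all 6 libraries.

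The balance of Fbxw7 and Myc within a library was close between same-numbered libraries of the genotypes, while the other ratios taken differed more at number 2. The ratio of Fbxw7 to Myc FPKM was 15.5, 18.5 and 20.3 in knockout libraries 1, 2 and 3, while wild-type libraries 1, 2 and 3 gave 16.1, 18.1 and 21.9. The ratio of Fbxw7 to Usp28 was 6.92, 5.20 and 7.86 in the knockout libraries, against 7.29, 7.12 and 7.47 in the wild-type libraries, with the lowest value in knockout library 2. Max exceeded the sum of Myc and Mycn by 7.79, 12.1 and 6.16 times in the knockout libraries, against 9.02, 6.16 and 6.06 times in the wild-type libraries. The genotypes overlapped in all 3 ratios. No ratio to Mycn alone was taken. In knockout library 2 Mycn had 1.17 FPKM and Fbxw7 47.51 FPKM, against 3.36 and 44.45 FPKM in wild-type library 2.

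The genes whose profile over the 6 libraries was closest to that of Fbxw7 were Tnrc6b, Gfod1 and Bbs1. Likeness was the root mean square difference of log2(FPKM + 1), with each gene centred on its own mean. For these 3 genes it was 0.025, 0.025 and 0.028, against a median of 0.20 over all genes tested. They were picked as the smallest values, so lying below that median was fixed in advance and shows no link to Fbxw7. Fbxw7 itself varied by 0.13 (root mean square) from its own mean. Tnrc6b, a gene of microRNA-guided silencing, had 5.19, 5.81 and 6.44 FPKM in knockout libraries 1, 2 and 3, against 5.63, 5.38 and 6.65 FPKM in wild-type libraries 1, 2 and 3, so library 3 was again the highest in each genotype. Closest to Myc, picked in the same way, were Csrp2bp, Kif1bp and Kdelr1, at 0.011, 0.021 and 0.022, against a median of 0.15. Myc itself varied little between libraries, by 0.061 (root mean square) from its own mean.

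The other components of the SCF ligase and of cullin neddylation, the attachment of NEDD8 that activates cullins, showed no called difference. Of 14 genes listed and tested, 0 passed over all genes in limma, and the median log2 fold change was -0.067. At an unadjusted p under 0.05, 0 were higher and 1 was lower, against 2.37% and 3.69% of all genes tested. In this and the later lists, genes given with FPKM values were among the 4 of lowest unadjusted p. That choice favours groups that do not overlap, as those of 11.9% of all genes tested did not. Uba3, the catalytic subunit of the NEDD8-activating enzyme, had 29.37, 29.32 and 27.45 FPKM in knockout libraries 1, 2 and 3, against 34.66, 33.46 and 32.14 FPKM in wild-type libraries 1, 2 and 3. All knockout values lay below all wild-type values, with a log2 fold change of -0.21 (SE 0.079; limma adjusted p = 0.79). Nae1, the partner of Uba3 in that enzyme, went the other way in its values, with means of 22.4 FPKM in the knockout and 19.5 FPKM in the wild type and overlapping groups. Its log2 fold change was 0.19, or 0.32 without knockout library 3 (limma adjusted p = 0.882). Rnf7, a RING subunit of cullin ligases, had 45.14, 47.12 and 34.48 FPKM in knockout libraries 1, 2 and 3, against 44.43, 59.41 and 49.61 FPKM in wild-type libraries 1, 2 and 3. The groups overlapped, and knockout library 3 was the lowest. Its log2 fold change of -0.27 became -0.14 without that library and -0.16 without wild-type library 2, the highest.

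Other F-box subunits, which give SCF ligases other substrates, were as often higher as lower. Of 16 tested, 8 had a positive and 8 a negative log2 fold change, and 0 passed in limma. At an unadjusted p under 0.05, 0 were higher and 1 was lower, against 2.37% and 3.69% of all genes tested. That 1 was Fbxo2, an F-box protein of neurons that binds glycoproteins, with 37.90, 37.24 and 31.68 FPKM in knockout libraries 1, 2 and 3, against 50.91, 47.52 and 37.75 FPKM in wild-type libraries 1, 2 and 3. The groups overlapped by a narrow margin between knockout library 1 and wild-type library 3 (log2 fold change -0.34, SE 0.13, limma adjusted p = 0.79). Fbxw9 had 7.97 FPKM in the knockout and 6.84 FPKM in the wild type without overlap (limma adjusted p = 0.79). Fbxw11, a paralog of the beta-catenin ligase subunit Btrc, had 31.70, 39.49 and 32.08 FPKM in knockout libraries 1, 2 and 3, against 29.18, 29.78 and 31.18 FPKM in wild-type libraries 1, 2 and 3. The groups did not overlap, and knockout library 2 stood above the rest. The log2 fold change was 0.18 (limma adjusted p = 0.796), or 0.084 without that library (limma adjusted p = 0.827).

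The enzymes that write and read the phosphodegrons showed no called difference. GSK3 kinases phosphorylate the threonine marked above, and protein phosphatase 2A also acts on this stretch of MYC. Of 12 such genes tested, 0 passed in limma and 0 had an unadjusted p under 0.05. Their log2 fold changes ran from -0.055 to 0.22, with a median of 0.020. Plk2, an activity-regulated polo-like kinase, had 76.57, 56.27 and 77.27 FPKM in knockout libraries 1, 2 and 3, against 68.55, 50.91 and 59.78 FPKM in wild-type libraries 1, 2 and 3, with overlap. Its log2 fold change was 0.22, or 0.37 without knockout library 2 and 0.14 without knockout library 3 (limma adjusted p = 0.61 and 0.924).

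A list of 11 genes held other ubiquitin ligases and deubiquitinases reported to act on MYC proteins, and Usp25, the paralog of Usp28. Of these 0 passed in limma. At an unadjusted p under 0.05, 1 was higher and 0 lower, against 2.37% and 3.69% of all genes tested. The 1 was Usp36, a nucleolar deubiquitinase reported to stabilise MYC. It had 10.17, 9.75 and 8.95 FPKM in knockout libraries 1, 2 and 3, against 8.29, 8.12 and 7.63 FPKM in wild-type libraries 1, 2 and 3. The groups did not overlap (log2 fold change 0.24, SE 0.089, limma adjusted p = 0.79). Usp7, another deubiquitinase, had 34.7 FPKM in the knockout and 32.0 FPKM in the wild type, without overlap (limma adjusted p = 0.81). The list median was 0.032.

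Partners in the MAX and MLX network, which compete with MYC for MAX or bind related DNA sites, gave a similar picture. Of 11 genes listed, 9 were tested, since Mxd3 and Mlxipl had a mean below 1 FPKM. In limma 0 passed, and the median log2 fold change was 0.026. At an unadjusted p under 0.05, 1 was higher and 0 lower, against 2.37% and 3.69% of all genes tested. Mlxip, a glucose-responsive partner of MLX, had 6.63, 7.50 and 6.63 FPKM in knockout libraries 1, 2 and 3, against 5.92, 5.23 and 5.89 FPKM in wild-type libraries 1, 2 and 3. The groups did not overlap (log2 fold change 0.25, SE 0.098, limma adjusted p = 0.79). Mnt, a MAX partner that represses transcription, had 12.8 and 10.7 FPKM in knockout and wild type, with overlap.

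Transcripts of other FBXW7 substrates showed no called difference. Of 20 listed, 19 were tested, since Myb had a mean below 1 FPKM. In limma 0 passed, 0 had an unadjusted p under 0.05, and the median log2 fold change was 0.017. The lowest value was that of Myrf, the myelin regulatory factor, an oligodendrocyte transcription factor and reported FBXW7 substrate. It had 17.82, 18.18 and 7.19 FPKM in knockout libraries 1, 2 and 3, against 21.20, 24.45 and 19.08 FPKM in wild-type libraries 1, 2 and 3. The groups did not overlap, and knockout library 3 was far below the others (log2 fold change -0.65, SE 0.33, limma adjusted p = 0.79). Without that library it was -0.24 (limma adjusted p = 0.882). All 10 oligodendrocyte markers tested had a negative log2 fold change too, with a median of -0.76, or -0.31 without knockout library 3, and their part in the Myrf value was not tested. Notch2 had 2.68 and 2.33 FPKM in knockout and wild type without overlap (limma adjusted p = 0.82).

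Genes widely used as MYC targets, mostly of ribosome production and growth, also showed no called difference. Of 22 tested, 0 passed in limma and 0 had an unadjusted p under 0.05, with 8 positive and 14 negative log2 fold changes and a median of -0.030. Hspd1, the mitochondrial chaperonin, had 57.28, 48.71 and 55.54 FPKM in knockout libraries 1, 2 and 3, against 57.83, 68.15 and 61.56 FPKM in wild-type libraries 1, 2 and 3, without overlap (log2 fold change -0.21, SE 0.10, limma adjusted p = 0.79). Ppan had 9.58 and 8.12 FPKM in knockout and wild type, and Ncl had 33.9 and 31.3 FPKM. Ran, a nuclear transport GTPase, had 58.0 and 63.6 FPKM in knockout and wild type. Groups overlapped for these 3. Ppan and Ncl were higher in the knockout, and Hspd1 and Ran lower, in all 3 same-numbered pairs. Of all genes tested, 40.0% had 1 direction in all pairs. These 4 genes were named for the lowest unadjusted p of the list, a choice that favours 1 direction in all pairs. Their agreement is therefore no test against that share. In pair 1 the differences of Ncl, Hspd1 and Ran were small, at 0.52, -0.55 and -0.36 FPKM, and that of Ppan was 1.47 FPKM. Ppan and Ncl are nucleolar genes, and other listed genes of ribosome production went both ways. Npm1, Nop58, Fbl and Rrp9 had log2 fold changes of -0.073, -0.033, -0.025 and -0.040. Gnl3, Wdr43, Nop56, Polr1b and Bop1 had 0.19, 0.13, 0.11, 0.073 and 0.021. Of 14 genes that control the cyclin E step, 12 were tested, 0 passed in limma and 0 had an unadjusted p under 0.05, with a median of 0.031. Ccne2, the paralog of Ccne1, had 1.47, 3.33 and 2.15 FPKM in knockout libraries 1, 2 and 3, against 1.48, 1.51 and 2.31 FPKM in wild-type libraries 1, 2 and 3, so that knockout library 2 was again the highest. Its log2 fold change was 0.24, or 0.025 without that library (limma adjusted p = 0.984).

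Over the 8 lists together, 112 distinct genes were tested, and 0 passed in limma, with all 6 libraries or with the replicate block. At an unadjusted p under 0.05, 2 were higher and 2 lower in the knockout, 3.57% of them, against 6.05% of all genes tested. The genotypes did not overlap for 11.9% of all genes tested. By list, this held for 1 of 14 SCF and neddylation genes, and for 2 higher and 1 lower of 16 F-box subunits. It held for 2 of 11 MYC ubiquitin genes, 1 of 9 MAX and MLX genes and 1 of 22 MYC targets. Of 19 substrates 1 was higher and 1 lower, and the other lists had 0. List medians ran from -0.067 to 0.032, and the signs of most did not hold over the alternatives. For 7 of the 8 lists the median changed sign in at least 1 of the 13 alternatives, and all 104 values lay between -0.098 and 0.088. Without knockout library 2 the median was -0.026 for the MAX and MLX network and -0.038 for cyclin E control, and without knockout library 3 it was -0.0092 for the phosphodegron enzymes.

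**Figure D4:**
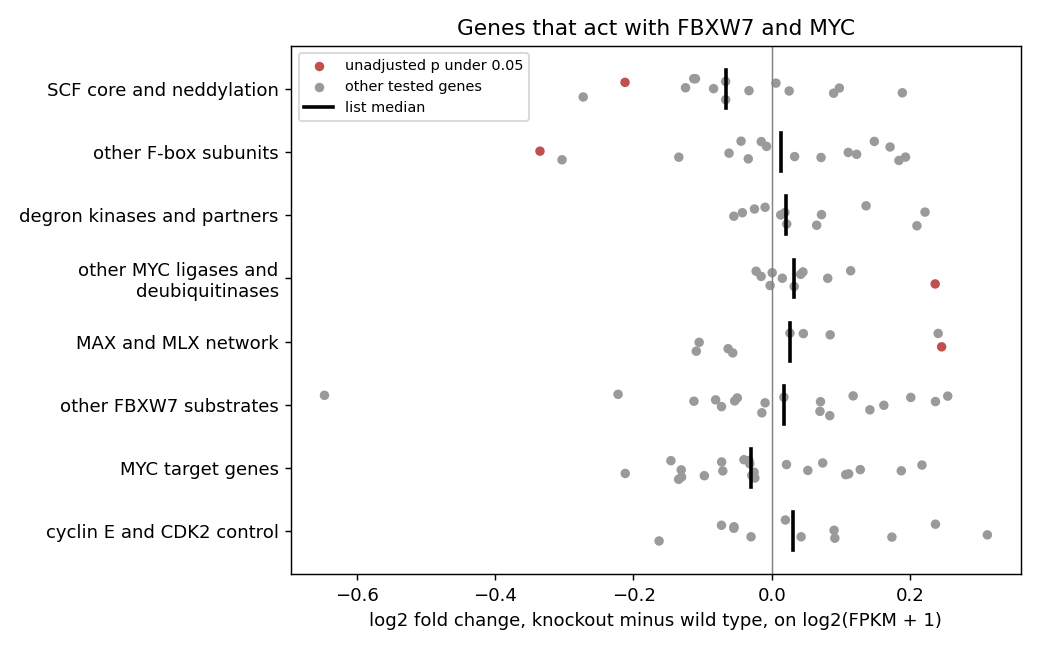
Log2 fold change (knockout minus wild type, horizontal axis, on log2(FPKM + 1)) of each tested gene in the 8 lists, with red points at an unadjusted p under 0.05 and black lines at list medians. The medians lie between -0.067 and 0.032, and the point farthest to the left is Myrf, at -0.65.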

How the data were processed

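Messenger RNA of 6 brain samples was captured on oligo(dT) beads, fragmented and copied with random hexamers, per the labels' protocols. The deposited values are FPKM with 2 decimals, per the file headers. Bowtie2, RSEM and mm10 are named in the submitters' processing notes; no source used here gives versions, annotation release, filters or strand settings. RSEM shares ambiguous fragments among genes, so near-identical copies carry uncertain values.

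Genotypes came from the labels and replicate numbers from the titles. Genotypes were compared with limma 3.58.1 under R 4.3.3 (trend and robust prior) on log2(FPKM + 1) for 12885 genes averaging 1 FPKM or more, 2-sided, with Benjamini-Hochberg adjustment over all of them and a threshold of 0.05. Fold changes on this scale understate the change of low genes. Interval ends were converted to percent of wild type at the wild-type mean log value. Exact permutations used SciPy 1.17.1. Code was tested on simulated data. Coordinates are RefSeq's on GRCm38, the assembly that mm10 names. Members and lists were chosen with earlier results of these data known. Named genes were the 7 members, Mettl5, up to 4 genes of lowest unadjusted p per list and 3 nearest profiles for Fbxw7 and Myc; marker genes were named after their values were seen. Some genes that this rule names are not reported here.

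Across genes, deviations from each genotype's mean were correlated between libraries of the same number (0.485, 0.413 and 0.539 for numbers 1, 2 and 3). The numbers were therefore taken as pairing the libraries, but only in the replicate block and where same-numbered libraries are compared. The labels do not say that they pair. The main limma fit, its intervals and the permutations did not use the numbers. At an unadjusted limma p under 0.05 there were 6.05% of all genes tested in the main fit and 14.3% with the replicate block.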

Additional observations from a re-analysis of the deposited data

How the results depend on the processing

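The alternatives were a pseudocount of 0.1, no filter or a filter at 0.1 FPKM, a common sum per library, quantile normalization, array weights, the replicate block, and leaving out each library. Over these 13 alternatives, 0 of the 7 members passed in limma (lowest adjusted p 0.375), and 79 of 91 member values kept their sign. Of the other 12, Fbxw7 was 0.0040 with a common sum and Max -0.0036 with array weights. Leaving out 1 library accounts for the rest, with ranges of -0.11 to 0.065 for Fbxw7, -0.030 to 0.22 for Usp28, -0.023 to 0.068 for Myc, -0.069 to 0.11 for Max and -0.20 to 0.057 for Ccne1. Over all genes, limma called 0 with all libraries (780 at an unadjusted p under 0.05), and between 0 and 1 when a library was left out. The 1 was Rps27rt without wild-type library 3. Rps27rt was listed at 0 in all 3 knockout libraries and also in wild-type library 3, and at 32.31 and 15.80 FPKM in wild-type libraries 1 and 2. With no filter, and with the filter at 0.1 FPKM, 1 gene was called, Hist2h2aa2, listed at 0 in all 3 knockout libraries. Both genes were chosen after their values were seen and have near-identical copies. With the replicate block 0 genes passed and 1842 had an unadjusted p under 0.05 (14.3%), and the block changed no call for the members (adjusted p between 0.375 and 0.968). Array weights gave 1361 such genes and leaving out wild-type library 2 gave 316. Of 416 values for 32 list genes, 1 turned, Mxd4, which ran from -0.26 to 0.059 when a library was left out. Of 104 list medians, 6 moved by more than the spread between libraries: other F-box subunits to -0.019, 0.062 and 0.056 without wild-type library 1, wild-type library 2 and knockout library 3, the MAX and MLX network to -0.028 with array weights and -0.026 without knockout library 2, and cyclin E control to -0.038 without knockout library 2. Absolute depth is unknown, so the counting error of Myc and Mycn could not be set beside their spread.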
